A study of Mus musculus with 10 samples.

Results

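MYC and the proteins that pair with it or oppose it set how fast a cell grows, and several genes of this circle, together with genes linked to growth arrest, are known to respond to low oxygen. The members described here are Myc, Max, Mxi1, Mnt, Ccng2, Ndrg1 and Pim1. They were found by gene symbol: every probe set of the array whose platform annotation gives one of these symbols was taken, which gave 9 probe sets out of 12488, for 7 of the 8252 genes that the array measures with a probe set of a single symbol. Ndrg1 and Pim1 have 2 probe sets each and the other 5 genes have 1. All 9 passed the filter on low values, which kept 7453 probe sets for testing. Of the 9, 2 (Mnt and the dimmer Pim1 probe set, 99384_at) passed through their hypoxic arrays only, since their mean on the normoxic arrays lay under the filter of 40.14.

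The study asked how mouse hepatocytes, the main cell of the liver, respond to low oxygen with and without HIF-1alpha, the oxygen-regulated subunit of the transcription factor HIF-1. Total RNA was measured on 10 oligonucleotide arrays, 1 per sample: 3 of hypoxic HIF-1alpha null cells, 3 of hypoxic adeno-treated wild-type cells, 2 of normoxic adeno-treated cells and 2 of normoxic untreated cells. The sources used here do not give what the adeno agent carried, whether null cells received it, how the gene was inactivated, which genotype the normoxic cells had, how deep and how long the hypoxia was, or whether arrays stand for separate cultures. The p-values therefore measure the spread between these arrays only. No normoxic null group was analysed here. Values are scaled intensities on a linear scale. A log2 change is the difference between group means of log2(intensity + 4.7), and a fold is its antilog. A probe set is said to have risen or fallen where limma gave an adjusted p under 0.05.

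MYC binds DNA as a dimer with MAX, mainly at the E-box CACGTG, and turns on genes of growth, ribosome production and metabolism. MXI1 and MNT also dimerise with MAX and bind the same sequence, but recruit repressors, so that they oppose MYC. HIF-1 binds a shorter core, ACGTG or GCGTG, and Mxi1, Ndrg1 and Ccng2 are known as genes induced by hypoxia in several cell types. Cyclin G2, the product of Ccng2, is an unusual cyclin that accumulates in cells leaving the cycle. NDRG1 is a protein induced by stress and differentiation. PIM1 is a serine/threonine kinase, known as a survival factor downstream of STAT signalling and as a partner of MYC in lymphoid tumours.

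The E-box and the HIF core share letters, so the bases just before the start sites of the members were searched for both. RefSeq (build GRCm38.p6) supplied the 250 bases before 8 start sites of 5 members, namely Max, Mxi1 (3 start sites), Mnt, Ccng2 and Pim1 (2 start sites). Myc (chr15:61985341-61990361) and Ndrg1 (chr15:66929318-66969641) were not searched. The windows below are shown because they hold every match found. Each is 30 bases of the plus strand, on which all these genes lie, written 5′ to 3′ with the matched letters in capitals.
Mxi1, the second start site, chr19:53329335-53329364: cctcggcacccgACGTGcactggcgggggg
Mxi1, the third start site, chr19:53329658-53329687: tgcggatgatcaACGTGcagcgcctgctgg
Mnt, distal match, chr11:74830683-74830712: gaatgccctaagCACGCaaaccccgtttaa
Mnt, E-box, chr11:74830789-74830818: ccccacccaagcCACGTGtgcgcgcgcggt
Ccng2, chr5:93267512-93267541: tccgcgcgcagtCACGCgccccgccccttg
Pim1, the second start site, chr17:29493015-29493044: gtaaacaggaatCACGTGgtctgaaaccag

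The Mxi1 matches, ACGTG, begin 66 and 25 bases before their start sites. CACGC, which is GCGTG read on the other strand, begins 229 bases before the Mnt start site and 49 bases before that of Ccng2. The E-boxes begin 123 bases before the Mnt start site and 58 bases before the second of Pim1, and CACGTG holds ACGTG on both strands, so an E-box also counts as a match to the HIF core. No match was found in the windows of Max, the first start site of Mxi1 or the first of Pim1. Over 32851 mouse promoter windows of the same length, searched on both strands, 6.02% held CACGTG, 16.6% held ACGTG, 28.2% held GCGTG and 38.6% held either form of the HIF core. A match is a run of letters and does not show that a factor binds there.

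Before the members, 3 features of the arrays matter. Of the genes that define hepatocytes, albumin read 8038.9 to 13761.2 and was at or above percentile 99.98 of every array, Apoa1 at or above percentile 99.82, Ttr at or above 89.16 and the transcription factor gene Hnf4a at or above 54.37. The summed intensity of 17 of 20 hepatocyte markers, none at 0, ranged over 37780 to 48200 on null arrays, 35740 to 55600 on hypoxic wild-type arrays, 45750 to 59020 on normoxic adeno-treated arrays and 40480 to 46780 on normoxic untreated arrays. Against normoxic adeno-treated cells limma called 0 of the 17 lower in either hypoxic group, and with the array number as a block it called 7 lower in null and 5 lower in wild type. Over all 7453 probe sets it called 7 lower in null and 1 in wild type, and 214 and 54 with the block. The part of these markers in the members' values was not tested. The mean log2 intensity of the 18S rRNA control probes was 12.18 on null number 3 and 12.33 on wild-type number 3, and 5.98 to 10.25 on the other 8 arrays, and no normoxic array has the number 3. The summed intensity of 14 of 15 stellate cell and fibroblast markers ranged over 5415 to 16830 on null arrays, 5901 to 18150 on hypoxic wild-type arrays, 10390 to 11120 on normoxic adeno-treated arrays and 9312 to 10260 on normoxic untreated arrays, and none of these markers was at 0 on any array. For 4 of 6 biliary markers, none at 0, the sums were 1205 to 3119, 850.4 to 3962, 428.7 to 932.0 and 436.2 to 1155 in the same order of groups. In RNA of many cells, fewer cells of a type and less RNA per cell cannot be told apart. The Hif1a probe sets, which may detect related transcripts, read 850.0 to 1647.1 and 910.3 to 1689.4 on the null arrays, against 703.2 to 961.8 and 704.3 to 1095.5 on hypoxic wild-type arrays. The sources used here do not give where the inactivating change lies, so these probe sets are no check of the genotype.

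In hypoxic wild-type cells all 9 member probe sets were brighter on every array than in normoxic adeno-treated cells, and 5 of them, for 4 genes, passed the test. Of the 9, 2 (Mnt and the dimmer Pim1 probe set) were tested only because their hypoxic arrays lifted them over the filter. Their direction is therefore tied to how they were selected, and the other 7 carry the count. Under the filter at the 60th percentile, where neither was tested, 4 member probe sets were called higher. Mnt, Ccng2, Ndrg1 (both probe sets) and the brighter Pim1 probe set rose, by 2.39-fold to 3.60-fold apart from Mnt (5.0-fold), while Myc, Max and Mxi1 did not pass. Over all 7453 probe sets limma called 0.322% higher (24 probe sets), and in 11.7% every hypoxic wild-type array was above both normoxic adeno-treated arrays. With the array number as a block, limma called 1.48% higher (110) and the same number of member probe sets, 5. The median log2 change was 1.26 over the 9 member probe sets, Mnt and the dimmer Pim1 probe set included, and -0.02 over all probe sets tested. Without the hypoxic number 3 arrays 2 member probe sets were called, those of Ccng2 (1.80, adjusted p = 0.0180) and Ndrg1 160464_s_at (1.53, adjusted p = 0.0161).

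**Figure D1:**
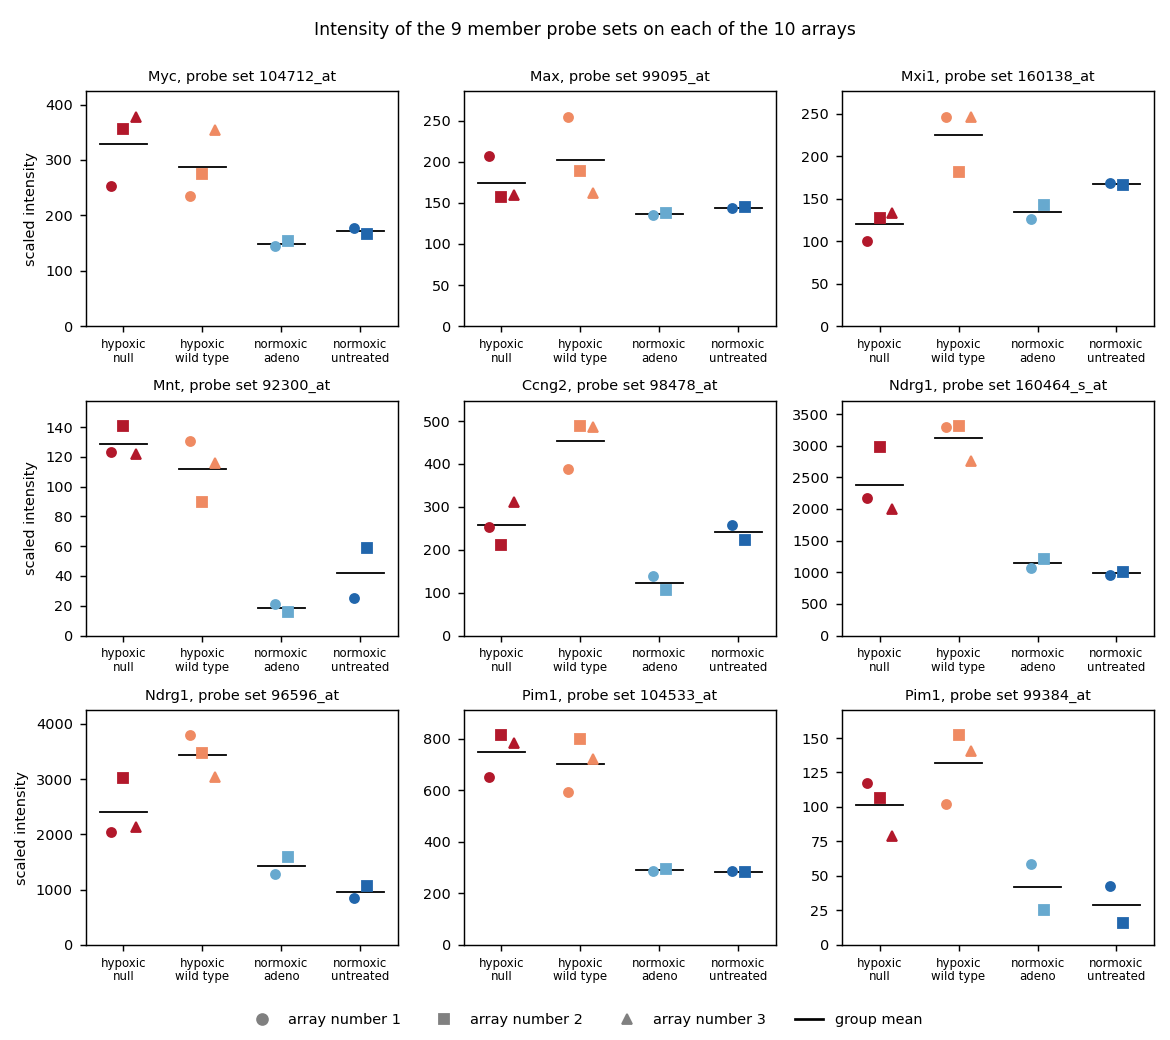
Scaled intensity (vertical axis, linear, from 0) of each member probe set on each of the 10 arrays, by group, with a marker for the array number and a bar at the group mean. All hypoxic wild-type arrays lie above both normoxic adeno-treated arrays in every panel, while the null arrays of Mxi1 overlap the normoxic adeno-treated ones.

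Myc itself was brighter on the hypoxic arrays of either genotype. It read 252.8, 355.3 and 378.4 on null arrays, 234.5, 275.5 and 353.4 on hypoxic wild-type arrays, 144.0 and 152.9 on normoxic adeno-treated arrays, and 177.0 and 165.5 on normoxic untreated arrays. The 6 hypoxic arrays were all above the 4 normoxic ones, and the genotypes overlapped. In both hypoxic groups the number 1 array was the dimmest and the number 3 array the brightest. In hypoxic wild type Myc averaged 288 ± 60.4 (SD, n = 3), against 148 ± 6.29 (SD, n = 2) in normoxic adeno-treated cells, a log2 change of 0.91 (SE 0.23, 1.88-fold, limma adjusted p = 0.258). That is a positive difference with a 95% interval of 0.40 to 1.43 that did not pass over all probe sets, and it was 0.76 without the number 3 arrays.

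Max, the shared partner of MYC, MXI1 and MNT, did not pass in any of the 4 comparisons, with or without the block. Its values were 206.4, 156.5 and 159.0 in null, 254.9, 188.9 and 161.9 in hypoxic wild type, 135.5 and 137.8 in normoxic adeno-treated, and 144.0 and 144.6 in normoxic untreated cells. The normoxic arrays lay close together, and in both hypoxic groups the number 1 array was the brightest. The log2 change of hypoxic wild type against normoxic adeno-treated was 0.52 (SE 0.22, limma adjusted p = 0.593). Max was lowest on number 3 in hypoxic wild type but on number 2 in null. Summed stellate cell and fibroblast markers were likewise highest on the number 1 arrays of both hypoxic groups (16830 in null and 18150 in wild type) and lowest on the number 3 arrays (5415 and 5901). Summed biliary, macrophage and endothelial markers also fell from number 1 to number 3 in both hypoxic groups, and summed hepatocyte markers rose. The part of any of these markers in the Max values was not tested.

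The genes of the MYC-opposing repressors Mxi1 and Mnt gave different patterns. Mxi1 read 99.8, 127.5 and 132.9 in null, 246.1, 181.1 and 246.7 in hypoxic wild type, 126.0 and 142.4 in normoxic adeno-treated, and 168.0 and 166.7 in normoxic untreated cells. Hypoxic wild type was highest and did not overlap any other group, the untreated arrays came next, and the null arrays overlapped the normoxic adeno-treated ones. The log2 change of hypoxic wild type against normoxic adeno-treated was 0.71 (SE 0.21, 1.64-fold) with a limma adjusted p = 0.345. Mnt, in contrast, read 122.9, 140.7 and 122.1 in null, 130.7, 89.7 and 116.0 in hypoxic wild type, 21.2 and 15.9 in normoxic adeno-treated, and 25.2 and 59.1 in normoxic untreated cells. The 6 hypoxic arrays of Mnt lay above all 4 normoxic arrays, with the genotypes overlapping. Mnt averaged 112 ± 20.8 (SD, n = 3) in hypoxic wild type, against 18.55 ± 3.75 (SD, n = 2) in normoxic adeno-treated cells, and rose 5.0-fold (log2 2.32, SE 0.33, limma adjusted p = 0.0176). Since Mnt was tested only because its hypoxic arrays lifted it over the filter, the fit with no filter bears on this call, and it gave an adjusted p = 0.0304. Leaving out any 1 of the 5 arrays of the comparison ended the Mnt call, with log2 changes of 2.16 to 2.49 (adjusted p = 0.0585 to 0.274). The dim normoxic values make the size of the fold depend on the added constant.

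Ccng2, the growth-arrest cyclin, was the member with the smallest p in this comparison. It read 252.3, 212.1 and 311.0 in null, 389.0, 488.4 and 485.6 in hypoxic wild type, 139.7 and 107.0 in normoxic adeno-treated, and 258.3 and 223.7 in normoxic untreated cells. Hypoxic wild type stood above every other array, null and normoxic untreated arrays overlapped, and the normoxic adeno-treated arrays were the lowest. Ccng2 averaged 454 ± 56.6 (SD, n = 3) in hypoxic wild type, against 123 ± 23.1 (SD, n = 2) in normoxic adeno-treated cells, and rose 3.60-fold (log2 1.85, SE 0.22, limma adjusted p = 0.00917). With the 4 normoxic arrays taken as 1 group, a choice made after seeing the data, the log2 change was 1.37 (adjusted p = 0.0594), while the mean of the 2 normoxic groups as reference gave the same change with an adjusted p = 0.00911. The call also ended without normoxic adeno-treated number 2 (1.66, adjusted p = 0.158) and without hypoxic wild-type number 2 (1.79, adjusted p = 0.0534).

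Both probe sets of Ndrg1, the stress and differentiation gene, rose in hypoxic wild type. Probe set 160464_s_at read 2178.2, 2977.0 and 2002.2 in null, 3290.5, 3311.2 and 2750.9 in hypoxic wild type, 1067.1 and 1211.7 in normoxic adeno-treated, and 963.8 and 1000.5 in normoxic untreated cells. Probe set 96596_at read 2043.9, 3026.5 and 2141.9 in null, 3793.5, 3479.1 and 3041.8 in hypoxic wild type, 1281.6 and 1585.4 in normoxic adeno-treated, and 848.8 and 1071.8 in normoxic untreated cells. On both, all 6 hypoxic arrays were above the 4 normoxic arrays, and null number 2 was the brightest null array. The rise in hypoxic wild type was 2.73-fold on 160464_s_at (log2 1.45, SE 0.19, limma adjusted p = 0.0130) and 2.40-fold on 96596_at (log2 1.26, SE 0.21, limma adjusted p = 0.0457). The call of 160464_s_at ended without normoxic adeno-treated number 1 (1.36, adjusted p = 0.143) or number 2 (1.54, adjusted p = 0.158) and without hypoxic wild-type number 2 (1.40, adjusted p = 0.0920), and that of 96596_at without any 1 of the 5 arrays (1.11 to 1.41, adjusted p = 0.0757 to 0.319).

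The kinase gene Pim1 was near the same level in both hypoxic groups and in both normoxic groups on its brighter probe set. Probe set 104533_at read 652.7, 812.7 and 781.4 in null, 591.3, 796.9 and 719.3 in hypoxic wild type, 285.4 and 292.9 in normoxic adeno-treated, and 285.2 and 283.0 in normoxic untreated cells. The genotypes overlapped, and the 4 normoxic arrays lay within 10 intensity units of each other. It rose 2.39-fold in hypoxic wild type against normoxic adeno-treated cells (log2 1.26, SE 0.18, limma adjusted p = 0.0201). That call ended without hypoxic wild-type number 2 (1.16, adjusted p = 0.105) or number 3 (1.23, adjusted p = 0.0757) and without normoxic adeno-treated number 1 (1.24, adjusted p = 0.166) or number 2 (1.28, adjusted p = 0.274). The dimmer probe set 99384_at read 117.7, 106.4 and 79.2 in null, 102.3, 151.9 and 140.8 in hypoxic wild type, 58.5 and 25.2 in normoxic adeno-treated, and 42.7 and 15.8 in normoxic untreated cells. Its hypoxic arrays were again all above its normoxic ones, with a log2 change of 1.63 (SE 0.42) that did not pass (limma adjusted p = 0.272). Against the mean of the 2 normoxic groups the change was 1.87 (adjusted p = 0.0571), which did not pass either.

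**Figure D2:**
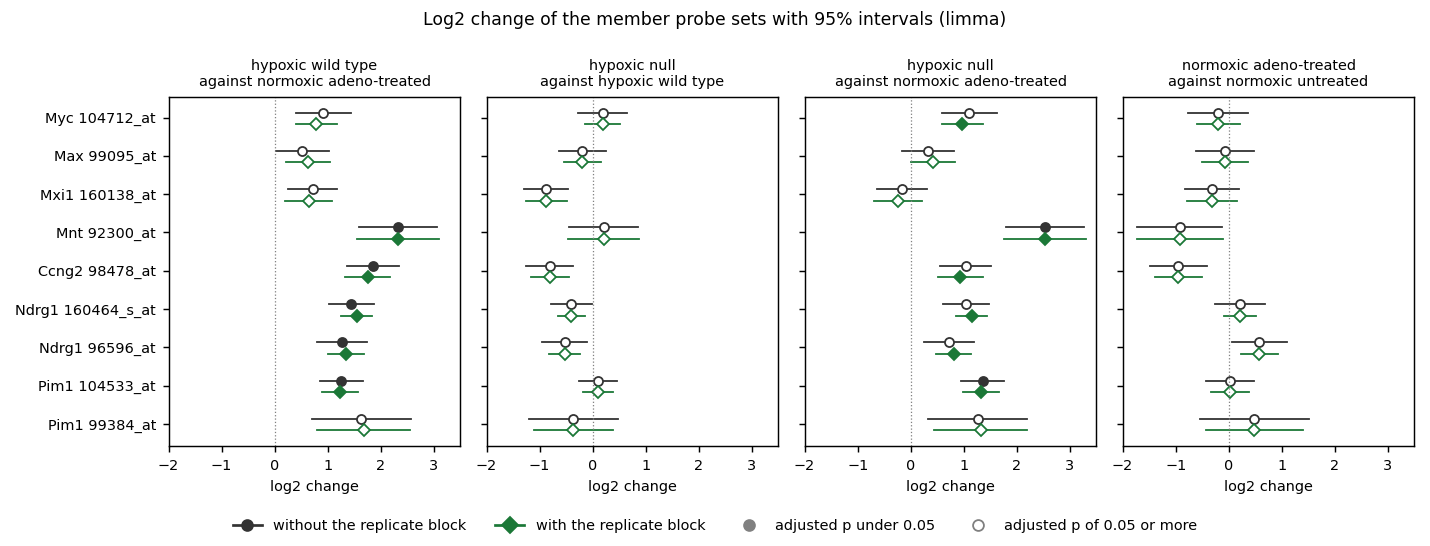
Log2 change (horizontal axis) of each member probe set in the 4 comparisons, with 95% intervals from limma, without a block (circles) and with the array number as a block (diamonds). Filled markers have an adjusted p under 0.05. In hypoxic wild type against normoxic adeno-treated cells all 9 lie right of 0, and in hypoxic null against hypoxic wild type none is filled.

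Null was set against wild type under hypoxia to ask which members differ with HIF-1alpha, and no member passed. The wild-type arrays are labelled adeno-treated and the null labels name no such treatment, so genotype and any unlike adeno exposure cannot be told apart. Mxi1 and Ccng2 showed the largest differences, both lower in null, followed by Ndrg1, while Myc, Mnt and the brighter Pim1 probe set differed by 0.10 to 0.20 on the log2 scale. Over all probe sets limma called 0.0% lower and none higher, with 259 at an unadjusted p under 0.05, and the smallest adjusted p was 0.313. With the array number as a block, 1 probe set was higher and 7 lower (0.0939% lower), again with 0 of the 9. The 7 lower became 0 without the number 3 arrays or without any 1 of null 2, null 3, wild-type 2 and wild-type 3. Without null 1 the block gave 12 higher and 15 lower, and without wild-type 1 it gave 5 higher and 2 lower. The unadjusted p was under 0.05 for 4 of the 9, namely Mxi1, Ccng2 and both Ndrg1 probe sets. Every null array was below every hypoxic wild-type array for 3 member probe sets (Mxi1, Ccng2 and Ndrg1 96596_at), against 2.75% of all probe sets. The median log2 difference was -0.37 over the 9 and 0.02 over all probe sets tested.

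Mxi1 averaged 120.1 ± 17.8 (SD, n = 3) in null and 225 ± 37.7 (SD, n = 3) in hypoxic wild type, a log2 difference of -0.87 (SE 0.19, 95% interval -1.29 to -0.46, limma adjusted p = 0.432). It was lower in null in 3 of 3 same-number pairs, with differences of -1.26 in number 1, -0.49 in number 2 and -0.87 in number 3. Ccng2 averaged 258.5 ± 49.7 (SD, n = 3) in null and 454 ± 56.6 (SD, n = 3) in hypoxic wild type, a log2 difference of -0.81 (SE 0.20, interval -1.25 to -0.38, limma adjusted p = 0.554). It too was lower in 3 of 3 pairs, at -0.61 in number 1, -1.19 in number 2 and -0.64 in number 3. Mxi1 and Ccng2 came closer to the threshold with the block, at adjusted p = 0.0786 and 0.0832, without passing it. Both genes carry a HIF core in the windows printed above, as do Mnt and Pim1, and so did 38.6% of all mouse windows searched. Mxi1 was searched at 3 start sites and Pim1 at 2, and Ndrg1 was not searched. A link between these matches and the null values was not tested. Without the number 3 arrays the differences were -0.88 for Mxi1 and -0.90 for Ccng2 (adjusted p = 0.9993 for each).

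Ndrg1 lay between these and the rest. Its log2 difference was -0.53 (interval -0.96 to -0.11) on 96596_at and -0.40 (interval -0.78 to -0.02) on 160464_s_at, each lower in null in 3 of 3 pairs and each with a limma adjusted p = 0.9995. Max was at -0.20 (interval -0.64 to 0.25), also lower in 3 of 3 pairs, with differences of -0.30 to -0.02. Myc was at 0.19 (interval -0.27 to 0.65) and the brighter Pim1 probe set at 0.10 (interval -0.27 to 0.46), both higher in null in 3 of 3 pairs. The intervals of Max, Myc and this Pim1 probe set leave room for differences in either direction, so they do not show that the genotypes were alike. Mnt was at 0.20 (interval -0.45 to 0.86), higher in null in 2 of 3 pairs, and Pim1 99384_at at -0.37 (interval -1.20 to 0.47), lower in 2 of 3. Whether the difference between genotypes was larger for Mxi1 or Ccng2 than for another member was not tested.

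**Figure D3:**
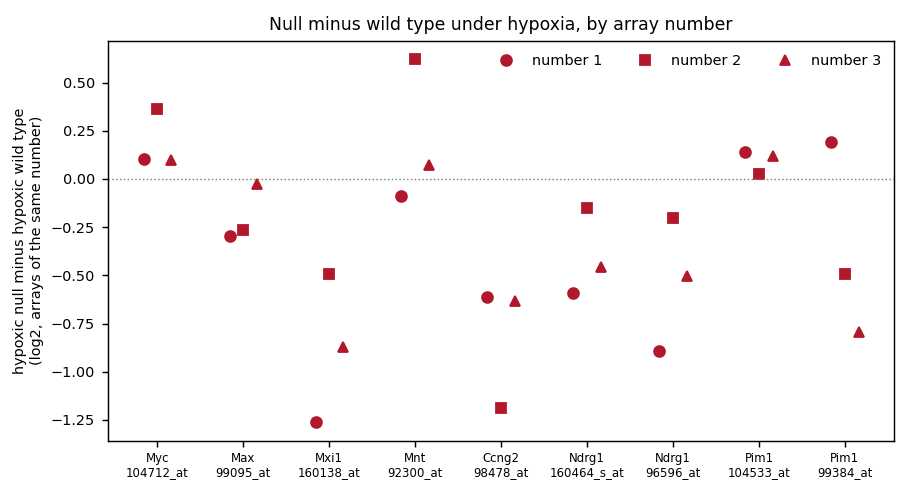
Difference on the log2 scale (vertical axis) between the hypoxic null and the hypoxic wild-type array of the same number, for each member probe set, with a marker per number. All 3 points lie below 0 for Max, Mxi1, Ccng2 and both Ndrg1 probe sets, and above 0 for Myc and Pim1 104533_at.

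Hypoxic null cells were also set against the normoxic adeno-treated ones, a comparison in which genotype, oxygen and any unlike adeno exposure cannot be told apart. Mnt and the brighter Pim1 probe set passed. Mnt averaged 129 ± 10.5 (SD, n = 3) in null and 18.55 ± 3.75 (SD, n = 2) in normoxic adeno-treated cells, 5.76-fold (log2 2.53, SE 0.33, limma adjusted p = 0.0131, and 0.0224 with no filter). Pim1 104533_at averaged 749 ± 84.8 (SD, n = 3) in null and 289 ± 5.30 (SD, n = 2) in normoxic adeno-treated cells, 2.55-fold (log2 1.35, SE 0.18, limma adjusted p = 0.0149). Limma called 0.349% of all probe sets higher here (26), and with the array number as a block 2.94% (219). In 13.8% of all probe sets, and for 8 of the 9 member probe sets, every null array was above both normoxic adeno-treated arrays. The 8 include Mnt and the dimmer Pim1 probe set, which were tested only because their hypoxic arrays lifted them over the filter. Without the number 3 arrays neither passed, with Mnt at 2.56 and Pim1 104533_at at 1.32 (adjusted p = 0.0559 for each).

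With the block, 4 more member probe sets were called higher in null cells. They were Myc (0.97, adjusted p = 0.0142, against 1.10 and 0.115 without the block), Ccng2 (0.94, adjusted p = 0.0234, against 1.03 and 0.117), Ndrg1 160464_s_at (1.15, adjusted p = 0.00171, against 1.04 and 0.0591) and Ndrg1 96596_at (0.81, adjusted p = 0.0177, against 0.73 and 0.279). The numbers pair normoxic with hypoxic arrays only weakly, as described under the processing. The block call of Ccng2 ended without the number 3 arrays (adjusted p = 0.0555). Its null arrays also overlapped the normoxic untreated ones, as given above. Mxi1 was the exception among the members, at -0.16 (SE 0.21, interval -0.63 to 0.30, limma adjusted p = 0.864), with the groups overlapping. Since the hypoxic wild-type comparison uses the same normoxic adeno-treated arrays, the members' values in both are best read side by side: Mxi1 was at -0.16 in null and 0.71 in wild type, Ccng2 at 1.03 and 1.85, Mnt at 2.53 and 2.32, and Myc at 1.10 and 0.91.

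The adeno treatment alone, in normoxia, gave no call for any member. Ccng2 came nearest: its arrays read 139.7 and 107.0 with the treatment, against 258.3 and 223.7 without it, a log2 difference of -0.95 (SE 0.24, interval -1.48 to -0.41, limma adjusted p = 0.494). Mnt was at -0.92 (SE 0.36, adjusted p = 0.559), with untreated number 2 (59.1) above the other 3 normoxic arrays. Ndrg1 96596_at was at 0.58 (SE 0.23, adjusted p = 0.574), and Mxi1 at -0.31 (SE 0.23, adjusted p = 0.759). The remaining member probe sets lay between -0.20 and 0.48. The unadjusted p was under 0.05 for 3 of the 9, namely Ccng2, Mnt and Ndrg1 96596_at. Limma called 0.0% of all probe sets lower and none higher, with 619 at an unadjusted p under 0.05. With the block it called 0.134% lower (10) and 8 probe sets higher. Both treated arrays were below both untreated ones for 5 of the 9 member probe sets, against 24.4% of all probe sets. Both treated arrays were above both untreated ones for both Ndrg1 probe sets and the brighter Pim1 probe set, and the dimmer Pim1 probe set overlapped.

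Few of the other genes around the members passed the test. Of 26 partners and regulators of MYC, 12 were tested, and limma called 0 in any of the 4 comparisons, with or without the block, and 1 at an unadjusted p under 0.05, in the adeno comparison. Their median log2 change in hypoxic wild type against normoxic adeno-treated was -0.09, and 0.03 with the block. The smallest p values belonged to Mlx, a MAX-like dimerisation partner of the family (-0.34, adjusted p = 0.690), Hdac1, a histone deacetylase of the repressor complexes (-0.26, adjusted p = 0.834), and Mycl, a MYC paralogue (-0.34, adjusted p = 0.834). Of 36 target genes of MYC, 28 were tested. In hypoxic wild type limma called 0 and 3 at an unadjusted p under 0.05, with 8 positive, 20 negative and a median of -0.10 (-0.16 with the block), against -0.02 over all probe sets. Bop1, a factor of ribosome assembly, was at -0.66 (adjusted p = 0.296), the growth-regulated Pa2g4 at -0.81 (adjusted p = 0.488) and Gart, of purine synthesis, at -0.62 (adjusted p = 0.594). In null against normoxic adeno-treated cells Shmt1, of folate metabolism, was called lower with the block (-0.93, adjusted p = 0.0163, against -0.45 and 0.851 without it).

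Among 24 tested genes of growth arrest and cell cycle brakes, Gadd45a rose in hypoxic wild type. Gadd45a, a stress-induced brake on the cycle, averaged 882 ± 294.5 (SD, n = 3), against 187 ± 0.212 (SD, n = 2) in normoxic adeno-treated cells (log2 2.16, limma adjusted p = 0.0201). It was also higher in null than in normoxic adeno-treated cells (2.39, limma adjusted p = 0.0131). In normoxic adeno-treated against untreated cells 18 of the 24 were negative. In hypoxic wild type the list's median was 0.06 (0.12 with the block), with 15 positive and 9 negative, beside -0.02 over all probe sets. With the block, Klf4, a factor that restrains proliferation in epithelia, was called too (1.83, adjusted p = 0.00229, against 1.46 and 0.422 without it). So was the growth-arrest RNA gene Gas5 (0.79, adjusted p = 0.0357), which was at 0.20 (adjusted p = 0.983) without the block. Btg1, an antiproliferative gene, was at 0.54 (adjusted p = 0.355). In null against normoxic adeno-treated cells the block called Klf4 (2.0, adjusted p = 0.00133, against 1.63 and 0.282 without it) and Gadd45b (1.20, adjusted p = 0.0208, against 0.97 and 0.584) higher. It also called Gas5 higher (0.76, adjusted p = 0.0273, against 0.17 and 0.969) and Gas2 lower (-1.33, adjusted p = 0.0294, against -0.99 and 0.508). Ddit4, an inhibitor of mTOR signalling, was at -1.21 in null against hypoxic wild type (adjusted p = 0.9995).

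Of 23 tested cyclins, kinases and replication genes, limma called 0 in any of the 4 comparisons, with or without the block. In hypoxic null against hypoxic wild type 3 had an unadjusted p under 0.05, and 19 were positive and 4 negative, with a median of 0.33, beside 0.02 over all probe sets, of which 55.0% were positive. Ccnf, the F-box protein cyclin F, averaged 180.2 ± 9.82 in null and 100.1 ± 19.7 in hypoxic wild type (log2 0.83, limma adjusted p = 0.495; SD, n = 3 each). Ccne1, which drives entry into DNA replication, averaged 397 ± 38.9 in null and 253 ± 30.4 in hypoxic wild type (0.64, limma adjusted p = 0.652; SD, n = 3 each). The helicase subunit gene Mcm2 was at 0.40 (adjusted p = 0.9995). In hypoxic wild type against normoxic adeno-treated the list's median was -0.20 (-0.03 with the block), with Ccnf at -0.72 (adjusted p = 0.334), Mcm2 at -0.44 (adjusted p = 0.594) and Ccna2 at 0.61 (adjusted p = 0.422).

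The paralogues of the members were measured by 5 tested genes. Limma called 0 in any comparison, with or without the block, and 1, Ccng1 in null against hypoxic wild type, had an unadjusted p under 0.05. Ccng1, the sister gene of Ccng2 and a target of p53, was at -0.23 in hypoxic wild type against normoxic adeno-treated (adjusted p = 0.834) and at 0.53 in null against hypoxic wild type (adjusted p = 0.9995). Both signs are opposite to those of Ccng2. The kinase paralogues Pim3 (0.15, adjusted p = 0.912) and Pim2 (0.07, adjusted p = 0.983) lay near 0 where Pim1 rose. Of 19 tested genes of STAT signalling, Fos, an immediate early transcription factor gene, was higher in hypoxic wild type (2.45, limma adjusted p = 0.0102) and in null (1.82, limma adjusted p = 0.0393) against normoxic adeno-treated cells. The survival gene Bcl2l1 was called with the block in hypoxic wild type (0.83, adjusted p = 0.0266, against 0.59 and 0.705 without it) and in null (0.64, adjusted p = 0.0435, against 0.41 and 0.735). The cytokine signal inhibitor Socs2 was lower in null than in normoxic adeno-treated cells with the block (-1.25, adjusted p = 0.00792, against -1.61 and 0.218 without it). In normoxic adeno-treated against untreated cells the list's median was -0.275, with 14 of 19 negative, beside -0.006 and 49.4% positive over all probe sets. In hypoxic wild type against normoxic adeno-treated its median was 0.29, with 15 of 19 positive. Over all probe sets the median there was -0.02, with 47.12% positive. Cebpd (-0.72, adjusted p = 0.501) and Socs1 (0.80, adjusted p = 0.515) did not pass.

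Other known HIF targets give the frame for Mxi1, Ccng2 and Ndrg1. Of 20 tested, 5 rose in hypoxic wild type (Adm, Slc2a1, Hk2, Ero1a and Bhlhe40) and 11 with the block, beside 0.322% and 1.48% of all probe sets. The list's median was 0.85, beside -0.02 over all probe sets. The block added Vegfa, Gys1, Egln1, P4ha2, Hmox1 and Lox. Lox, which is also among the fibroblast markers, was at 1.02 with the block (adjusted p = 0.0237) and at 0.44 without it (adjusted p = 0.918). In null against hypoxic wild type 18 of the 20 were negative, with a median of -0.69, beside 0.02 and 55.0% positive over all probe sets. Limma called 0 of the 20 there, and 12 had an unadjusted p under 0.05, as had 259 of all 7453 probe sets. With the block 7 of all probe sets fell (0.0939%), among them 4 of the 20. The 4 were Hk2, the hexokinase that starts glycolysis (-1.37, adjusted p = 0.0261), the oxygen sensor Egln1 (-1.19, adjusted p = 0.0352), the phosphofructokinase gene Pfkl (-0.87, adjusted p = 0.0467) and the glycogen synthase gene Gys1 (-1.05, adjusted p = 0.0467). These 4 calls ended, with 0 probe sets lower in all, without the number 3 arrays together and without any 1 of null 2, null 3, wild-type 2 and wild-type 3. Without wild-type 1 only 2 probe sets were lower in all, so at most 2 of the 4 calls can have held. Fam162a (-0.96, adjusted p = 0.0502 with the block) and Ak4 (-1.22, adjusted p = 0.0536 with the block) missed the threshold narrowly. The values of Mxi1 and Ccng2, -0.87 and -0.81, lie between the list's lowest value, that of Hk2, and its median. Those of the Ndrg1 probe sets, -0.53 and -0.40, lie above that median. In null against normoxic adeno-treated cells 3 of the 20 were higher, namely Adm (4.50), Slc2a1 (2.56) and Bhlhe40 (1.17), beside 0.349% of all probe sets. The list's median there was 0.04 (0.22 with the block).

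**Figure D4:**
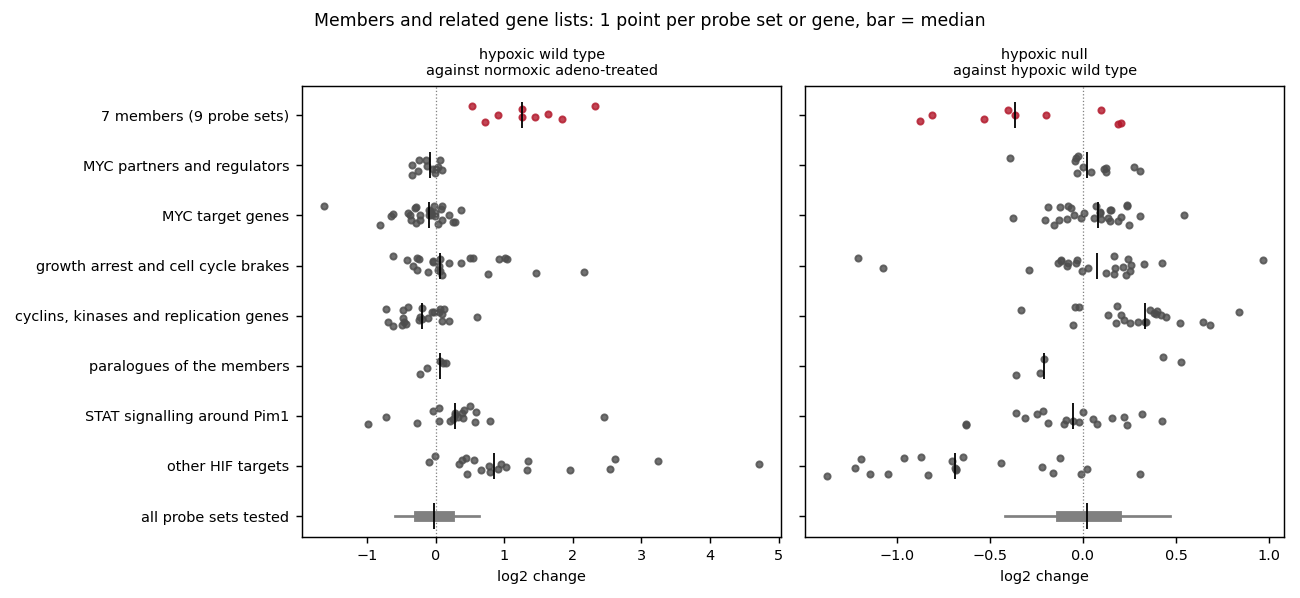
Log2 change (horizontal axis) in hypoxic wild type against normoxic adeno-treated cells and in hypoxic null against hypoxic wild-type cells, with 1 point per member probe set or tested gene and a bar at each list's median. The lowest row gives the middle 50% (box) and middle 90% (line) of all probe sets tested. In the left panel the members (median 1.26) and the other HIF targets (0.85) lie mostly above 0, and in the right panel the other HIF targets (-0.69) lie mostly below 0.

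For each member, the 2 genes whose log2 values followed it most closely over the 10 arrays were listed as a description. These arrays hold 4 groups and share their scaling, so a gene with the same order of groups will correlate highly. Myc was most like Gadd45a and Grpel2, a mitochondrial chaperone cofactor (Pearson r of 0.986 with each). Pim1 104533_at was most like Adm (0.989) and the stress factor gene Atf3 (0.988). Mnt was most like Dusp11 (0.981) and the growth factor gene Pdgfa (0.962), and Max like Ampd3 (0.940) and Sun2 (0.916). Mxi1 was most like Nampt, of nicotinamide salvage (0.916), and Ak4, a mitochondrial adenylate kinase (0.905). Ccng2 was most like the desmosome gene Pkp2 (0.923) and Eif4ebp1, an inhibitor of translation (0.918), and Ndrg1 96596_at like Fermt2 (0.945) and the glucose transporter gene Slc2a1 (0.942).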

How the data were processed

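The authors deposited intensities, scaled so that trimmed means of the arrays nearly coincide, as the values show. The sources used here do not give the steps before that. Values were turned to log2 after adding 4.7 (the 10th percentile over all arrays). The 66 control probe sets and those whose mean over the 10 arrays was under the 40th percentile (40.14) were left out. The 7453 others entered a fit of 4 group means over all 10 arrays (limma 3.58.1, R 4.3.3; lmFit, then eBayes with trend), which has 6 residual degrees of freedom. Tests were 2-sided, and every adjusted p is limma's, by Benjamini-Hochberg over the 7453 of a comparison, with a threshold of 0.05. For arrays, their number limits the precision. The scripts were tested on simulated data.

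The platform table gives 1 gene symbol for 10855 probe sets, several for 396 and none for 1237. Lists use the brightest probe set per gene. Samples were grouped by their labels, and the labels number them 1 to 3. On deviations from group means all 13 same-number pairs correlated above 0.1 (lowest 0.103), so the numbers were read as pairing arrays. Between the hypoxic groups these values were 0.541 to 0.677. The normoxic number 2 arrays, however, correlated more with hypoxic number 3 (0.154 to 0.253) than with hypoxic number 2 (0.103 to 0.173). In a group of 2 arrays the deviations mirror each other, so the 13 pairs are not independent checks. The pairing of normoxic with hypoxic arrays is therefore weak. The fit with the array number as a block has 4 residual degrees of freedom. Members, gene lists, tests and most alternatives were chosen with earlier results of these data known. Named genes are all members, every list gene called in a comparison with or without the block, and list genes of smallest p. Alternatives were other added constants (2.35, 18.8), no filter or one at the 60th percentile, quantile normalization, no trend, the block, fewer groups, all normoxic arrays, and leaving arrays out.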

Additional observations from a re-analysis of the deposited data

How the results depend on the processing

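Of the 5 member probe sets called higher in hypoxic wild type against normoxic adeno-treated cells, 2 were called without the number 3 arrays and 0 where only the arrays of those 2 groups were fitted. Leaving out 1 array gave 0 (without normoxic adeno-treated number 2 or hypoxic wild-type number 2) to 3 (without wild-type number 1), and 3 to 5 with the replicate block. Of the 2 called higher in hypoxic null against normoxic adeno-treated cells, the filter at the 60th percentile and the fit of only those groups each gave 1. The replicate block gave 6, leaving out the number 3 arrays 0, and both together 5. Leaving out 1 array gave 0 to 2, and 2 to 5 with the block. Under the 60th-percentile filter Mnt and Pim1 99384_at were no longer tested, which removes the Mnt call, and the settings that leave out arrays or groups have fewer arrays. For the other changes the cause was not tested. Signs turned only for differences that did not pass, among them that of Pim1 99384_at in normoxic adeno-treated against untreated cells (0.48). In hypoxic null against hypoxic wild type, leaving out 1 array gave -0.022 to 0.192 for Pim1 104533_at, and -0.049 to 0.407 for Mnt with the block. In normoxic adeno-treated against untreated cells it gave -0.12 to 1.08 for Pim1 99384_at (-0.013 to 0.973 with the block), -0.22 to 0.07 for Max with the block and -0.11 to 0.16 for Pim1 104533_at with the block. The Ndrg1 96596_at call in hypoxic wild type ended with no filter (adjusted p = 0.0747), quantile normalization (0.0676) and no trend (0.0898). Over all member values and settings, 663 kept direction and side of the threshold, 56 lost a call, 11 gained one and 9 turned sign. The replicate block changed no other member's call. Over all probe sets, 24 higher and 1 lower in hypoxic wild type became 110 and 54 with the block. The 24 became 3 without normoxic adeno-treated number 2, 5 without hypoxic wild-type number 2, 8 without normoxic adeno-treated number 1 and 6 where only those 2 groups were fitted.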
